A study of Rattus norvegicus with 16 samples.

Results

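The 10 genes described here encode the PGC-1, PPAR and estrogen-related receptor regulators of muscle energy metabolism. They were chosen by name, with no measured value in the rule but with earlier results of these data known: the coactivators Ppargc1a and Ppargc1b, the receptors Ppara, Ppard and Rxrg, the receptors Esrra, Esrrb and Esrrg, and the mitochondrial factors Nrf1 and Tfam. All 10 are among the 17147 genes of the table, and all 10 passed the filter for low counts that left 11658 genes for testing. Their messenger RNA was measured in the supraspinatus, a rotator cuff muscle, of Sprague Dawley rats, in 16 libraries that form 4 groups of 4. The 0-day group was unoperated. The other groups were sampled at 10, 30 or 60 days after an injury to both shoulders that combined a full-thickness tear of the supraspinatus with removal of the suprascapular nerve, so tear and denervation cannot be told apart in any of them. Age and sex are not given in the sources used here, and the controls had no operation, so effects of surgery itself cannot be told apart from those of the injury. The labels do not say which libraries came from separate rats, so p-values measure only the spread between these libraries. In whole muscle, fewer muscle fibres and less RNA per fibre cannot be told apart.

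PGC-1 coactivators bind transcription factors and switch on genes of mitochondria and of fat and sugar use. They have no DNA-binding domain of their own. Peroxisome proliferator-activated receptors (PPARs) sense fatty acids and bind DNA with a retinoid X receptor, of which Rxrg encodes the gamma form, enriched in skeletal muscle. Estrogen-related receptors (ERRs) resemble estrogen receptors but need no hormone, and they rely on PGC-1 coactivators to activate respiratory genes. NRF1 switches on nuclear genes of the respiratory chain, and TFAM enters mitochondria, where it packages and transcribes mitochondrial DNA.

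The promoters of 3 of these genes held a motif that was searched for, and they are printed here as a description of the sequence. Of the motifs found, only the NRF1 site is that of a factor among the 10 regulators. Sequences are from RefSeq on the rat assembly GRCr8 and run from 250 bases before to 50 bases after the start of the gene. Promoter entries matched 9 of the 10 genes. Capitals mark the motif. The Ppargc1a promoter (chr14:63634058-63634357, plus strand) held the cAMP response element TGACGTCA, which its own reverse complement spells, at base -181 from the start. That element is the binding site of CREB, through which nerve activity, exercise and fasting signals are known to act on Ppargc1a. The Ppara promoter (chr7:118712357-118712656, plus strand) held the NRF1 site CGCATGCGC on the plus strand at -99 and, overlapping it, on the minus strand at -100. The Tfam promoter (chr20:17355123-17355422, plus strand) held the core CCGGAAG, bound by the ETS factor GABPA (also called NRF-2), at -56.
Ppargc1a: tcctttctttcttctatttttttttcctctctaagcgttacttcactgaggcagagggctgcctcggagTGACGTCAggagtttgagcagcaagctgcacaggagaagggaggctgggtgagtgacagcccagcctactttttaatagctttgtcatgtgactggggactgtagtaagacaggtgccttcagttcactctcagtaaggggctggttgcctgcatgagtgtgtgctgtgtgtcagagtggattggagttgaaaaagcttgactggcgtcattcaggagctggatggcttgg
Ppara: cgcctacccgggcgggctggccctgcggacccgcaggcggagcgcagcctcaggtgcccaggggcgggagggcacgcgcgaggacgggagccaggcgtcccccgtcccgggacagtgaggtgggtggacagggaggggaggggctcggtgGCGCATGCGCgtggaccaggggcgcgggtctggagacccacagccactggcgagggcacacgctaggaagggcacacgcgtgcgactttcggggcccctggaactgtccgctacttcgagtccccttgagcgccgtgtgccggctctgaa
Tfam: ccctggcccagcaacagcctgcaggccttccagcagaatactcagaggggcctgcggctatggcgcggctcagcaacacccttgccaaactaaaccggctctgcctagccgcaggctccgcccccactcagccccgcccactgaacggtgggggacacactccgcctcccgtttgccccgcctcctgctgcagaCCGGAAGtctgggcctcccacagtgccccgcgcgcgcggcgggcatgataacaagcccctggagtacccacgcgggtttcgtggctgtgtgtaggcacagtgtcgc
Among all 33469 rat promoters of this length, searched on both strands, the cAMP response element was present in 1.83%, the NRF1 site in 1.52% and the GABPA core in 8.75%. The ERR element TCAAGGTCA (0.433% of promoters), the receptor half-site AAGGTCA (4.61%), which the ERR element contains, the DR1 repeat bound by PPAR and RXR pairs (0.152%) and the MEF2 box (3.29%) had no match in the 9 matched genes, which says only that these letters are absent from those windows. Several motifs were searched, so a match to any of them is more common than each single share. A match is a description of the sequence and not a measured binding site.

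Library totals ran from 17.2 to 39.9 M fragments (M, mega), and the 60-day libraries (17.2 to 22.4 M) were the shallowest. Values below are CPM (a gene's fragments out of every 1 M in its library) after TMM scaling, which sets each library's scale from the bulk of its genes. The scaling matters here. With library totals alone, the log2 change of the median gene moved up by 0.66, 0.49 and 0.41 at 10, 30 and 60 days, so a change below is read against the other genes of the library. Where library totals or upper-quartile factors ended a call of a regulator or turned its direction, this is named beside it. The summed level of 15 muscle-fibre markers was 287000 to 315000 CPM at 0 days, 79400 to 86400 at 10 days, 125000 to 176000 at 30 days and 159000 to 186000 at 60 days. Of these markers, 14, 11 and 8 were lower and 1, 1 and 2 higher at 10, 30 and 60 days, and with library totals 12, 8 and 5 were lower and 2, 3 and 4 higher. The part of fibre content in the changes of the 10 regulators was not tested. Levels are not compared between genes, since no gene lengths were used.

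The regulators were mostly lower after injury. A gene was called changed when its adjusted p, from edgeR's quasi-likelihood F test with Benjamini-Hochberg adjustment over all 11658 genes, was under 0.05. At 10 days 7 of the 10 were lower and 0 higher, at 30 days all 10 were lower, and at 60 days 9 were lower and 0 higher. Among all tested genes 62.7%, 64.6% and 59.0% were called at these times, and 29.4%, 30.9% and 29.1% were called lower. Most genes of this muscle were thus called at each time, and 7, 10 and 9 calls among the 10 regulators lie near that background or above it. Esrrb is among the 10, though it passed the low-count filter through the 0- and 10-day groups, where it was high. Its later falls were thus likely in advance, in these counts and in the overlaps and medians below. With a filter on a mean of at least 1 CPM, which left Esrrb out, 7, 8 and 8 regulators were lower and 0 higher. The 4 injured and 4 unoperated libraries did not overlap for 5, 10 and 8 of the 10 regulators, against 59.0%, 60.2% and 50.0% of all genes. The median log2 change of the 10 was -0.67, -1.09 and -0.84, beside 0.061, 0.046 and 0.040 for all genes. With library totals the counts were 4 lower and 2 higher at 10 days, 6 lower and 1 higher at 30 days, and 4 lower and 1 higher at 60 days. On that scale 10.1%, 11.9% and 12.1% of all genes were called lower and 70%, 63.1% and 57.8% higher. The 3 genes lower at all 3 times under each of the 4 scalings run (TMM, RLE, upper quartile, library totals) were Rxrg, Esrra and Ppard.

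**Figure D1:**
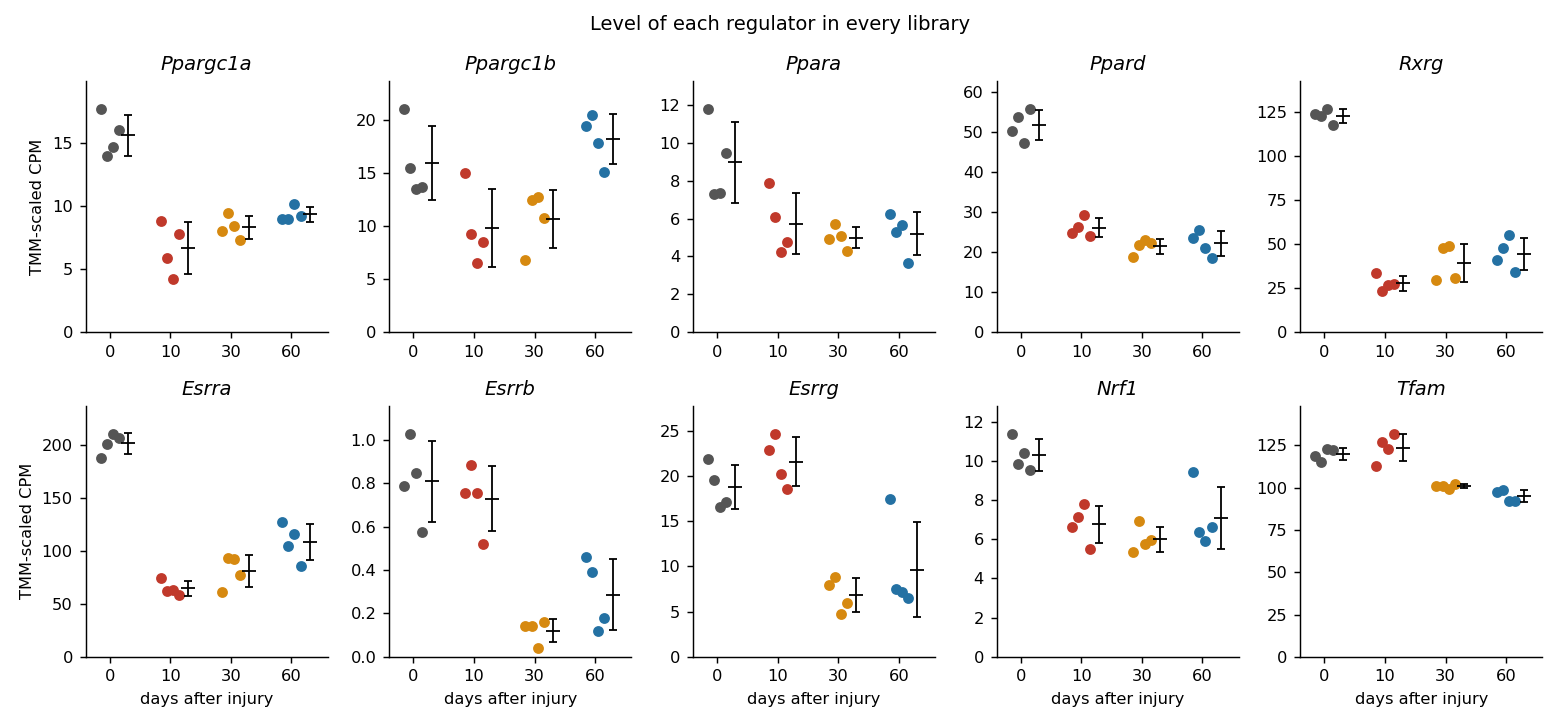
Level of each of the 10 regulators in every library, in TMM-scaled CPM on axes that start at 0, against days after injury. Points are single libraries, 4 per group, and the bar beside them is the mean with its SD. Esrra, Rxrg, Ppard, Ppargc1a and Nrf1 sit below the unoperated libraries at every time, Nrf1 only just so in 60-day library 1. Esrrb and Esrrg overlap the unoperated libraries at 10 days and sit well below them at 30 days.

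Of the coactivators, on the TMM scale Ppargc1a fell early and stayed low, while Ppargc1b was within the unoperated range at 60 days. Ppargc1a encodes PGC-1 alpha, the exercise-responsive coactivator of mitochondrial biogenesis. It stood at 17.7, 14.0, 14.7 and 16 CPM in the unoperated libraries, and at 8.85, 5.85, 4.18 and 7.81 CPM at 10 days. At 30 days it was 8.01, 9.45, 8.44 and 7.32 CPM, and at 60 days 8.99, 8.97, 10.2 and 9.20 CPM. All 12 injured libraries lay below all 4 unoperated ones. The log2 change was -1.22 ± 0.17 (SE) at 10 days, -0.91 ± 0.17 at 30 days and -0.74 ± 0.17 at 60 days (edgeR adjusted p 1.02e-05, 2.04e-04 and 0.00147). Between 10 and 60 days Ppargc1a rose by 0.48 ± 0.17 (edgeR adjusted p 0.0239), and those groups did not overlap. That rise was lost with library totals (0.23, edgeR adjusted p 0.252) and without 10-day library 2 (0.421, 0.0681), 10-day library 3 (0.311, 0.0676) or 60-day library 3 (0.438, 0.0607). With library totals the 60-day call against 0 days was lost too (-0.33, edgeR adjusted p 0.0896), while those at 10 and 30 days held (-0.57 and -0.42).

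Ppargc1b encodes PGC-1 beta, the related coactivator that maintains basal mitochondrial content. It measured 21.0, 15.4, 13.5 and 13.7 CPM at 0 days and 15, 9.26, 6.52 and 8.45 CPM at 10 days. It was at 6.77, 12.4, 12.7 and 10.7 CPM at 30 days and 19.4, 20.4, 17.8 and 15.1 CPM at 60 days. The 10-day group overlapped the unoperated one through its first library, and the 60-day libraries lay within the unoperated range. The log2 change of Ppargc1b was -0.69 ± 0.24 at 10 days and -0.57 ± 0.24 at 30 days, both called (edgeR adjusted p 0.0177 and 0.0425), and 0.19 ± 0.23 at 60 days, not called (0.49). From 30 to 60 days it rose by 0.77 ± 0.24 and from 10 to 60 days by 0.89 ± 0.24 (edgeR adjusted p 0.028 and 0.00407), with no overlap in either case. The early falls of Ppargc1b are the least secure of the set. With library totals they were -0.04 and -0.10 and not called, and at 60 days the gene was then called higher (0.60, edgeR adjusted p 0.0239). Upper-quartile factors also lost the 30-day call (-0.45, edgeR adjusted p 0.101). The 10-day call was lost without 0-day library 1 (-0.530, edgeR adjusted p 0.0713), 10-day library 3 (-0.540, 0.058) or 10-day library 4 (-0.626, 0.0503). The 30-day call was lost in 6 of 16 fits that left out 1 library: 0-day libraries 1 and 2 (edgeR adjusted p 0.157 and 0.068), 30-day libraries 1 and 4 (0.129 and 0.0692) and 60-day libraries 1 and 3 (0.0514 and 0.0503). The rise from 30 to 60 days was lost without 30-day libraries 1 or 4 (0.604 and 0.773, edgeR adjusted p 0.0857 and 0.0592) or 60-day libraries 2 or 3 (0.709 and 0.778, 0.0746 and 0.0523).

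Within each library the ratio of Ppargc1b to Ppargc1a does not depend on how libraries are scaled. Its log2 value was 0.24, 0.14, -0.13 and -0.23 at 0 days and 1.1, 1.18, 0.81 and 0.71 at 60 days. The 60-day libraries were all above the unoperated ones, and the mean ratio was 1.92-fold higher (log2 difference 0.94). The two-sided exact permutation p was 0.0286, the smallest that 4 against 4 allows, and 0.0857 after adjustment over 15 such ratio tests, of which 0 passed 0.05. At 10 and 30 days the ratio differed by 0.54 and 0.31, and the groups overlapped.

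The PPARs and their partner Rxrg were lower at every time after injury on the TMM scale, Ppara on that scale, RLE and upper quartile but not with library totals. Rxrg had the largest fall of the 10 regulators at 10 days. It was at 124, 123, 127 and 118 CPM at 0 days, and at 33.7, 23.4, 27.0 and 27.4 CPM at 10 days. At 30 days it measured 29.5, 48.0, 49.0 and 30.8 CPM and at 60 days 40.8, 48.1, 55.1 and 34.0 CPM. The injured libraries lay far below the unoperated ones, and the 10- and 60-day groups did not overlap each other. Rxrg fell by 77.4% at 10 days (log2 -2.14 ± 0.18, edgeR adjusted p 4.19e-08), and its log2 change was -1.64 ± 0.17 at 30 days and -1.47 ± 0.17 at 60 days (edgeR adjusted p 8.35e-07 and 3.93e-06). From 10 to 60 days it rose by 0.67 ± 0.17 (edgeR adjusted p 0.00336). The smaller rise from 10 to 30 days (0.50, edgeR adjusted p 0.0264) was lost with library totals (0.32, 0.0983). It was also lost without 10-day libraries 2, 3 or 4 (0.422, 0.482 and 0.490, edgeR adjusted p 0.0823, 0.0574 and 0.0534) or 30-day libraries 2 or 3 (0.386 and 0.377, 0.0952 and 0.0983).

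Ppard encodes PPAR delta, the PPAR that drives fatty acid oxidation and oxidative fibre character in muscle. It stood at 50.1, 53.8, 47.2 and 55.7 CPM at 0 days, 24.7, 26.3, 29.2 and 24 CPM at 10 days, 18.7, 21.8, 23.0 and 22.3 CPM at 30 days and 23.6, 25.5, 21.0 and 18.5 CPM at 60 days. The injured libraries formed a narrow band of their own below the unoperated ones. The log2 changes were -0.99 ± 0.10, -1.27 ± 0.10 and -1.23 ± 0.10 (edgeR adjusted p 2.47e-07, 2.33e-08 and 7.10e-08). It fell slightly further from 10 to 30 days (-0.28 ± 0.10, edgeR adjusted p 0.0286), a step that upper-quartile factors did not call (-0.21, 0.0809). Leaving out 10-day library 2 or 3 or 30-day library 1 also ended that call (-0.276, -0.224 and -0.220, edgeR adjusted p 0.057, 0.0974 and 0.0921).

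Ppara encodes PPAR alpha, the fasting-responsive receptor for fatty acids. It was at 11.8, 7.30, 7.36 and 9.48 CPM at 0 days and 7.86, 6.11, 4.22 and 4.76 CPM at 10 days. The values were 4.92, 5.70, 5.08 and 4.30 CPM at 30 days and 6.27, 5.27, 5.67 and 3.64 CPM at 60 days. The groups at 0 and 10 days overlapped through 10-day library 1, and the later groups did not overlap the unoperated one. Ppara was lower by log2 -0.64 ± 0.21, -0.84 ± 0.21 and -0.78 ± 0.21 (edgeR adjusted p 0.013, 0.00233 and 0.00494). With library totals none of these held (0.01, -0.35 and -0.38, edgeR adjusted p 0.957, 0.131 and 0.105), and without 0-day library 1 the 10-day call was lost (-0.481, 0.0595). The ratio of Ppard to Ppara within a library differed from the unoperated one by log2 -0.33, -0.45 and -0.45 and overlapped it at each time (two-sided exact permutation p 0.314, 0.0857 and 0.0857).

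**Figure D2:**
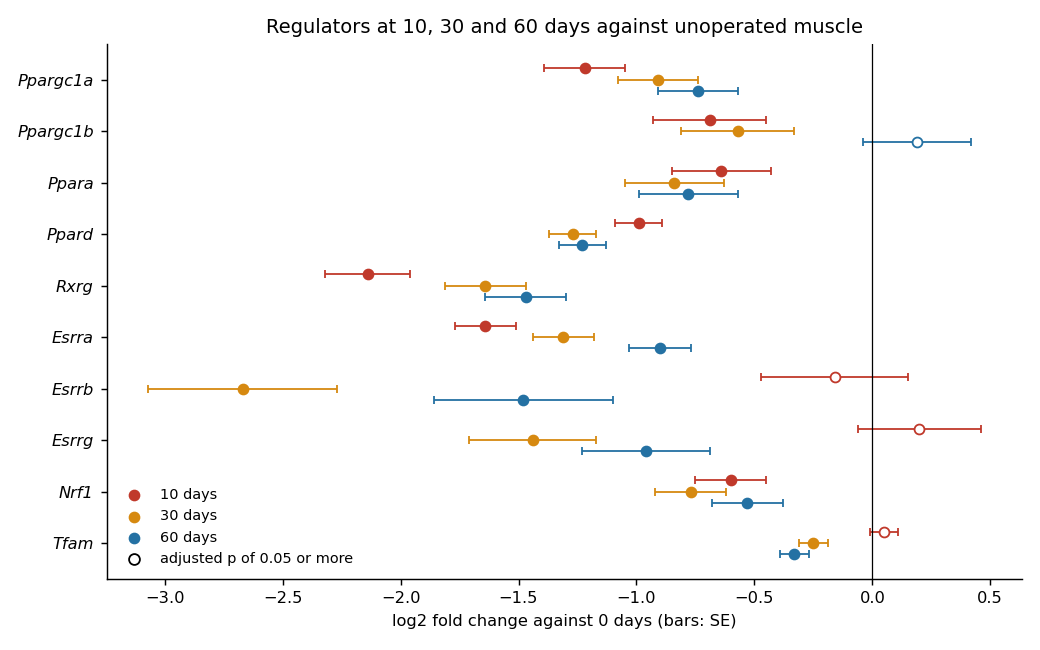
Log2 fold change of each regulator at 10, 30 and 60 days against 0 days, with bars for the SE, from the edgeR fit with 4 libraries per group. Filled points have an adjusted p under 0.05. Rxrg and Esrra are lowest at 10 days, Esrrb and Esrrg at 30 days.

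The 3 estrogen-related receptors did not move on the same schedule. On the TMM scale Esrra was lower by 10 days and came part of the way back, whereas Esrrb and Esrrg were not called at 10 days and fell afterwards. Esrra encodes ERR alpha, the partner through which PGC-1 alpha activates oxidative phosphorylation genes and a gene that responds to PGC-1 alpha itself. It was at 188, 201, 211 and 207 CPM at 0 days and 74.3, 62.4, 63.3 and 58.3 CPM at 10 days. It measured 61.0, 93.7, 92.8 and 77.4 CPM at 30 days and 127, 105, 116 and 86.2 CPM at 60 days. No injured library reached the unoperated range, and every 60-day library was above every 10-day one. The log2 changes were -1.64 ± 0.13, -1.31 ± 0.13 and -0.90 ± 0.13 (edgeR adjusted p 2.35e-08, 3.64e-07 and 2.63e-05). Between 10 and 60 days Esrra rose by 0.75 ± 0.13 (edgeR adjusted p 1.25e-04), also with library totals. The single steps were weaker: 10 to 30 days 0.33 ± 0.13 (edgeR adjusted p 0.0466) and 30 to 60 days 0.42 ± 0.13 (0.0309). The first step was lost in 12 of 16 fits without 1 library (0.255 to 0.446 over the 16, edgeR adjusted p up to 0.148) and with library totals (0.16, 0.243). The second was lost without 30-day library 1 or 4 (0.300 and 0.393, edgeR adjusted p 0.0956 and 0.0795) or 60-day library 1, 2 or 3 (0.330, 0.432 and 0.383, with 0.0758, 0.0539 and 0.0789).

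Esrrg encodes ERR gamma, the receptor tied to oxidative fibres and their blood supply. Its values were 21.9, 19.6, 16.6 and 17.1 CPM at 0 days and 22.9, 24.7, 20.2 and 18.6 CPM at 10 days. They were 7.97, 8.85, 4.68 and 5.95 CPM at 30 days and 17.5, 7.46, 7.13 and 6.49 CPM at 60 days. The groups at 0 and 10 days overlapped, the 30-day libraries lay below both, and 60-day library 1 stood apart from the other 3 and within the unoperated range. Esrrg was not called at 10 days (log2 0.20 ± 0.26, edgeR adjusted p 0.514) and fell by 30 days (-1.44 ± 0.27 against 0 days, 2.65e-04; -1.64 ± 0.27 against 10 days, 1.48e-04). At 60 days it was lower by log2 -0.96 ± 0.27 (edgeR adjusted p 0.00676), and by -1.42 without library 1. With library totals Esrrg was called higher at 10 days (0.86, edgeR adjusted p 0.00593), and its 60-day call was lost (-0.57, 0.0665), while the fall from 10 to 30 days held.

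Esrrb encodes ERR beta, a receptor best known from embryonic stem cells and the inner ear, and it was near the limit of detection here. Its libraries held 12 to 28 fragments at 0 days, 17 to 27 at 10 days, 1 to 6 at 30 days and 2 to 10 at 60 days. Summed over a group, this gave 0.826 CPM (95% exact Poisson interval 0.648 to 1.04) at 0 days, 0.728 (0.587 to 0.891) at 10 days, 0.125 (0.0698 to 0.206) at 30 days and 0.291 (0.184 to 0.436) at 60 days. Such intervals cover counting error only. By library the values were 0.787, 1.03, 0.848 and 0.575 CPM at 0 days, 0.754, 0.887, 0.758 and 0.522 at 10 days, 0.142, 0.142, 0.040 and 0.161 at 30 days and 0.461, 0.393, 0.117 and 0.178 at 60 days. The first pair of groups overlapped, and every 30- and 60-day library lay below all of them. Esrrb was not called at 10 days (log2 -0.16 ± 0.31, edgeR adjusted p 0.668, and 0.49, 0.16 with library totals). It fell by 30 days (-2.67 ± 0.40) and was still low at 60 days (-1.48 ± 0.38), with edgeR adjusted p of 2.40e-05 and 0.00306, and both calls held with library totals. Esrrb passed the filter for low counts through the 0- and 10-day groups, where it was high, so a difference between groups was likely once it was tested. The log2 difference of 1.19 ± 0.47 between 30 and 60 days was not called (edgeR adjusted p 0.0798), and without 60-day library 3 it was 1.424 (0.0461).

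The ratio of Esrrg to Esrra within each library is built from the same counts and does not depend on how libraries are scaled. Its log2 value was -3.10, -3.36, -3.66 and -3.60 at 0 days and -1.70, -1.33, -1.65 and -1.65 at 10 days. Every 10-day library was above every unoperated one, and the mean ratio was 3.6-fold higher (log2 difference 1.85, two-sided exact permutation p 0.0286, adjusted p 0.0857 over 15 tests). At 30 days the values were -2.93, -3.40, -4.30 and -3.70, and at 60 days -2.86, -3.81, -4.02 and -3.73. Both groups overlapped the unoperated one (differences -0.15 and -0.17), so the ratio stood apart at 10 days alone among the times sampled. The ratio of Esrrb to Esrrg was lower at 30 days by log2 -1.19 without overlap (two-sided exact permutation p 0.0286, adjusted p 0.0857), and -1.95 when libraries were thinned to the smallest total. That ratio rests on 1 to 6 Esrrb fragments per library at 30 days. Esrrb passed the low-count filter through the 0- and 10-day groups, where it was high, so a lower ratio at 30 days was likely in advance.

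**Figure D3:**
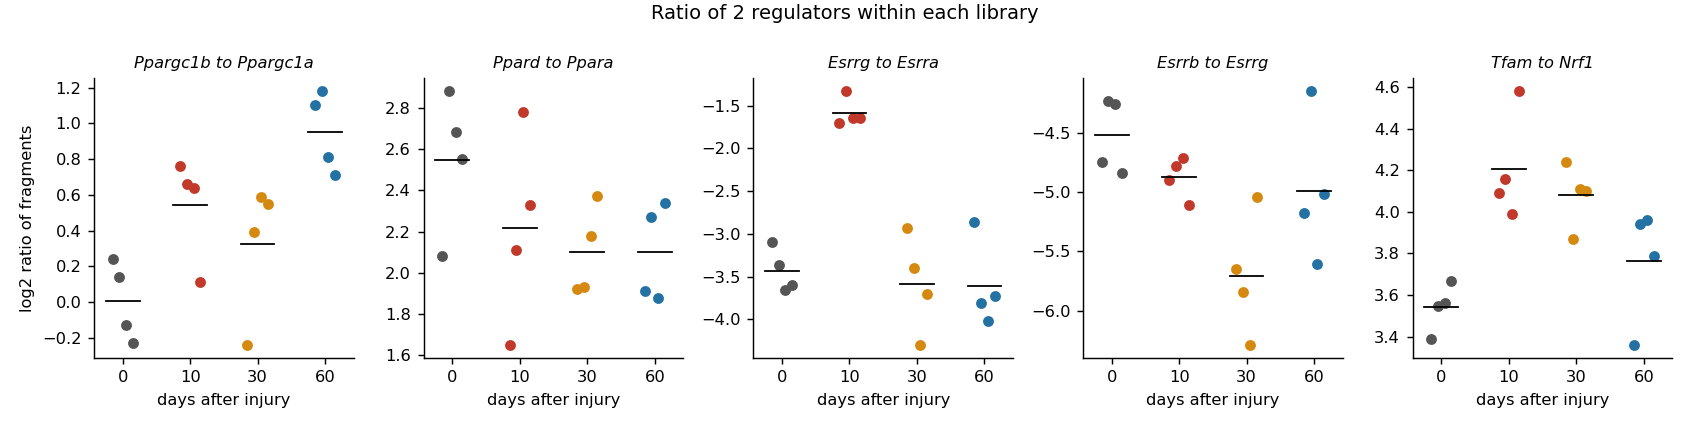
Log2 ratio of the fragments of 2 regulators within each library (a pseudocount of 0.5 fragments is added to both), against days after injury. Points are libraries and lines are group means, with 4 libraries per group. The ratio of Esrrg to Esrra is apart at 10 days and that of Ppargc1b to Ppargc1a at 60 days.

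Nrf1 and Tfam had the smallest TMM-scaled spans of the 10, both with lower levels at 30 and 60 days on the TMM scale. Nrf1 was at 11.4, 9.83, 10.4 and 9.53 CPM at 0 days and 6.61, 7.13, 7.78 and 5.53 CPM at 10 days. It was at 5.35, 6.91, 5.76 and 5.95 CPM at 30 days and 9.45, 6.39, 5.90 and 6.62 CPM at 60 days. The injured groups did not overlap the unoperated one, though 60-day library 1 came close to it. Nrf1 was lower by log2 -0.60 ± 0.15, -0.77 ± 0.15 and -0.53 ± 0.15 (edgeR adjusted p 0.00174, 2.37e-04 and 0.00581). None of these calls held with library totals (0.06, -0.28 and -0.13, edgeR adjusted p 0.729, 0.0869 and 0.447). The table gives symbols only, and RefSeq lists a retired symbol of Nfe2l1 as a synonym of Nrf1, so the gene counted under this name is not certain.

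Tfam had the smallest span of the 10 on the TMM scale. Its values were 119, 115, 123 and 122 CPM at 0 days and 113, 127, 123 and 132 CPM at 10 days, then 101, 101, 99.5 and 102 CPM at 30 days and 97.6, 98.6, 92.0 and 92.0 CPM at 60 days. The 10-day libraries straddled the unoperated ones, and the later libraries lay just below both. The log2 change of Tfam was 0.05 ± 0.06, -0.25 ± 0.06 and -0.33 ± 0.06 at 10, 30 and 60 days, of which the last 2 were called (edgeR adjusted p 0.469, 0.00144 and 1.42e-04). Its direction depends on the scaling: library totals gave 0.71 (edgeR adjusted p 3.97e-08), 0.25 (0.00255) and 0.07 (0.32), and upper-quartile factors -0.12 at 30 days (0.057). Its fall from 10 to 60 days (-0.38 ± 0.06, edgeR adjusted p 2.91e-05) is likewise read against the other genes. The ratio of Tfam to Nrf1, which needs no scaling, was higher than in unoperated muscle at 10 and 30 days without overlap (log2 differences 0.66 and 0.53). Both had a two-sided exact permutation p of 0.0286 and an adjusted p of 0.0857. At 60 days it differed by 0.22 and overlapped.

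**Figure D4:**
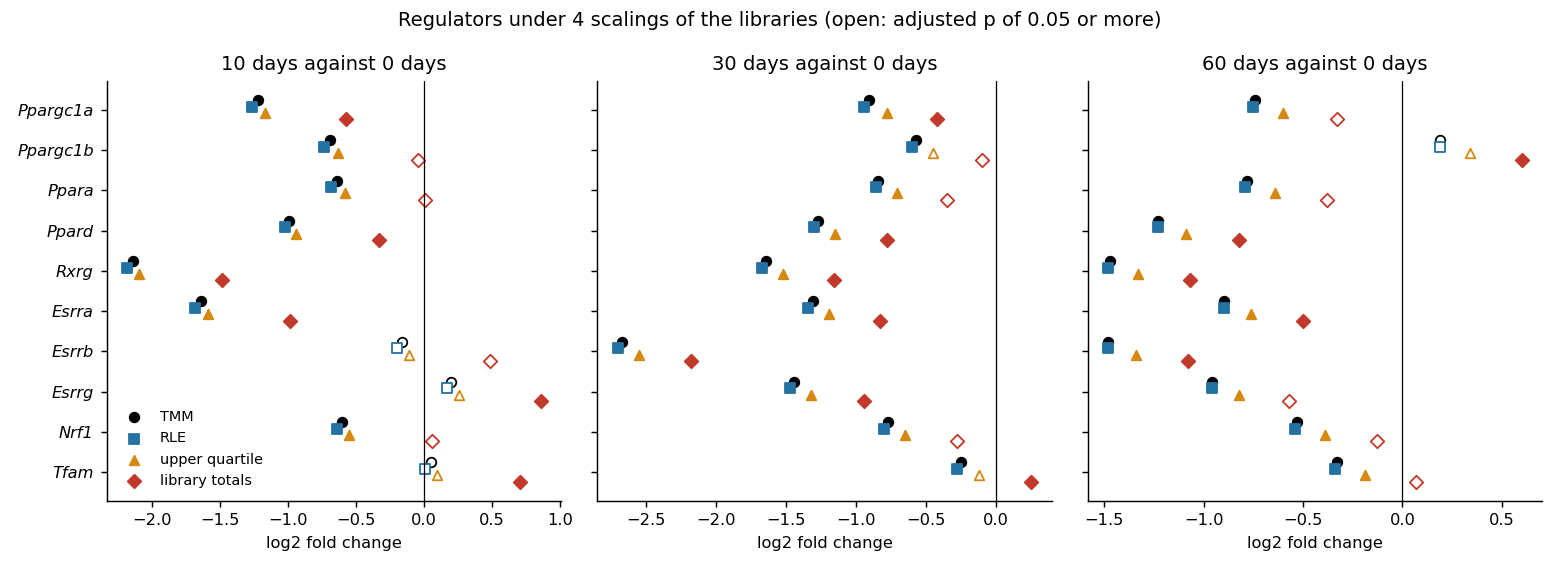
Log2 fold change of each regulator against 0 days under 4 scalings of the libraries, for 4 libraries per group. Filled symbols have an edgeR adjusted p under 0.05. Rxrg, Esrra and Ppard stay below 0 and filled throughout, while library totals move every gene to the right.

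Over the 4 groups together all 10 regulators differed (edgeR adjusted p 1.18e-08 for Ppard to 0.00543 for Ppargc1b), in a muscle where 84.7% of all tested genes did. Esrrb is among them, with the limit from the low-count filter given above. Between 10 and 30 days 6 of the 10 were called (Rxrg and Esrra higher, Ppard, Esrrb, Esrrg and Tfam lower), against 47.3% of all genes. Between 30 and 60 days Ppargc1b and Esrra were called, both higher, against 22.6%. Between 10 and 60 days 7 were called, against 61.1%: Ppargc1a, Ppargc1b, Rxrg and Esrra were higher and Esrrb, Esrrg and Tfam lower. These shares are near the background, so the number of members called is no result about them. The comparisons with 0 days share their unoperated libraries, and their values are given side by side for that reason.

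The span between the highest and the lowest group mean, on the log2 CPM scale, was 2.19 for Esrrb, 2.15 for Rxrg, 1.68 for Esrrg and 1.65 for Esrra. It was 1.27 for both Ppargc1a and Ppard, 0.94 for Ppargc1b, 0.81 for Ppara, 0.77 for Nrf1 and 0.38 for Tfam. For Esrrb the limit from the low-count filter, given above, applies to its span and to its distances below. Esrrb held 1 to 6 fragments per library at 30 days. Likeness of profile was measured as the root mean square difference of centred log2 CPM over the 16 libraries. Of the 45 pairs of regulators the closest was Rxrg with Esrra (0.27), then Ppara with Nrf1 and Ppard with Nrf1 (both 0.30) and Ppargc1a with Esrra (0.31). Esrrb and Esrrg were 0.40 apart and Esrra and Esrrg 0.92, and the farthest pair was Rxrg with Esrrb (1.1). Among 8215 other genes with a mean of at least 5 CPM, the profile nearest to Esrra was that of Isca1 (0.12), an iron-sulfur cluster assembly gene, followed by Dab2ip (0.13). The nearest to Rxrg were Pdlim7 (0.18) and Fam213b (0.20), to Ppard Atg9a and Dirc2 (both 0.11), and to Ppargc1a Osbpl6 (0.19) and Tnik (0.20). The nearest to Esrrg was Gnl3l (0.24), followed by Prkacb (0.25), a catalytic subunit of protein kinase A, and to Esrrb it was Alpk3 (0.37), a kinase gene of striated muscle. These distances are descriptions over libraries that share their scaling.

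The wider pathway was read from lists of its other genes. Of 13 tested partner receptors and factors, 3, 3 and 2 were higher and 8, 9 and 7 lower at 10, 30 and 60 days (median log2 change -0.52, -0.62 and -0.28), but with library totals 6, 3 and 6 were higher and 3, 5 and 2 lower, and the medians at 10 and 60 days were above 0 (0.14 and 0.12). The shares of all genes called, given above for both scales, apply to each of these lists. Perm1, a muscle regulator induced by PGC-1 and ERR and listed in the table as RGD1304931, went from 418 CPM ± 56.9 (SD, n = 4) at 0 days to 27.0 ± 18.6 at 10 days, 132 ± 62.6 at 30 days and 220 ± 41.3 at 60 days. That is a log2 change of -3.95 ± 0.43, -1.67 ± 0.39 and -0.93 ± 0.38 (edgeR adjusted p 1.07e-06, 0.0016 and 0.0492), and the last call was lost with library totals (-0.52, 0.217). Thra, the thyroid hormone receptor alpha, fell to log2 -1.79, -1.17 and -0.74, each called under library totals as well. Gabpa rose from 39.6 ± 3.4 to 68.4 ± 5.47 CPM at 10 days (0.79 ± 0.09, edgeR adjusted p 1.75e-06). Its 60-day change of 0.06 was not called (0.588), whereas library totals called it higher (0.47, 6.43e-04). A link between Gabpa and Tfam was not tested. Nfe2l2, the antioxidant regulator NRF2, rose at all 3 times (0.56, 0.42 and 0.28). Among the other RXR and PPAR genes, named after their values were seen, Rxra was lower at 10, 30 and 60 days (-0.95, -2.74 and -2.39, the first lost with library totals at -0.29), and Rxrb was lower by -0.40, -0.54 and -0.25, which became 0.26, -0.04 and 0.16 with library totals. Pparg, the fat cell PPAR, was lower at 10 and 30 days (-0.92 and -0.62, both lost with library totals at -0.27 and -0.13) while at 60 days its 0.35 was not called and library totals called it higher (0.77).

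Of 12 tested coactivators and corepressors 3, 1 and 1 were higher and 6, 9 and 5 lower (medians -0.32, -0.46 and -0.36). With library totals 7, 3 and 4 were higher and 2 lower at each time, and the medians changed direction (0.34, 0.03 and 0.05). Lpin1, lipin 1, which makes diacylglycerol and also coactivates PPAR alpha with PGC-1 alpha, fell most, from 86.0 ± 12.9 CPM to 20 ± 2.17, 12.2 ± 1.69 and 12.6 ± 3.38 CPM (log2 -2.10, -2.81 and -2.77, edgeR adjusted p 1.09e-08, 1.30e-09 and 6.13e-09). Mybbp1a, a repressor of PGC-1 alpha, rose at 10 days (0.77) and was lower at 30 and 60 days (-0.36 and -0.55, with library totals 0.13 and -0.15, neither called). Ncoa2, a p160 coactivator, rose at 10 days (0.73, edgeR adjusted p 0.0121). Cited2, a transcriptional co-regulator, fell at 10 days (-0.88), a call lost with library totals (-0.22, edgeR adjusted p 0.101).

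Of 22 tested kinases, phosphatases and factors that act upstream of PGC-1, 4, 3 and 2 were higher and 14, 15 and 14 lower (medians -0.56, -0.62 and -0.57). With library totals 8, 6 and 7 were higher and 4, 10 and 9 lower, and the median at 10 days changed direction (0.10, -0.12 and -0.17). Camk2a, a calcium and calmodulin dependent kinase, fell from 80.4 ± 7.13 CPM to 20.8 ± 4.78 at 10 days (log2 -1.95, then -1.77 and -1.54, each also called with library totals). Prkaa2, the muscle catalytic subunit of the energy sensor AMPK, was lower by -1.50, -1.96 and -1.70, also with library totals (-0.85, -1.47 and -1.31). The other catalytic subunit gene, Prkaa1, named after its values were seen, went the other way. It was higher by 0.96, 0.38 and 0.41, also with library totals (1.61, 0.87 and 0.81). The remaining AMPK subunit genes of the list moved in both directions at 10 days on the TMM scale. Hdac4, the deacetylase that represses MEF2 and is known to rise on denervation, went from 12.3 ± 1.56 CPM to 97.5 ± 6.99 at 10 days, 28.2 ± 3.86 at 30 days and 15.4 ± 6.27 at 60 days (2.98, 1.19 and 0.33, edgeR adjusted p 5.11e-09, 6.36e-05 and 0.159, the last called with library totals at 0.73). Mef2a, a muscle factor that drives Ppargc1a transcription, rose at 10 days (0.98, edgeR adjusted p 8.58e-04) and was lower at 60 days (-0.62, 0.022, lost with library totals at -0.22).

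The genes that PGC-1 and the ERRs are known to activate fell together at 10 days. Of 21 tested, 21, 19 and 14 were lower and 0 higher at 10, 30 and 60 days, with median log2 changes of -1.47, -0.87 and -0.59, beside 0.061, 0.046 and 0.040 for all genes, of which 29.4%, 30.9% and 29.1% were called lower. With library totals 19, 12 and 9 were lower and 0, 1 and 5 higher (medians -0.82, -0.39 and -0.18). From 10 to 60 days 17 of the 21 rose and 1 fell (median 1.22, and 16 and 4 with library totals), where 61.1% of all genes were called in either direction. Ckmt2, the mitochondrial creatine kinase of muscle, went from 1680 ± 269 CPM at 0 days to 186 ± 56.1 at 10 days, 932 ± 273 at 30 days and 1360 ± 466 at 60 days (log2 -3.17, -0.85 and -0.30, the last not called). Scaled by library totals, Ckmt2 lost its 30-day call (-0.37, edgeR adjusted p 0.209) and was at 0.12 at 60 days, not called (0.693). Cycs, cytochrome c, was lower by log2 -2.22, -1.28 and -0.67, the last lost with library totals (-0.27, edgeR adjusted p 0.0671). This order, lowest at 10 days and partly back at 60 days, is also that of the muscle-fibre markers, of which 11 of 15 rose and 2 fell from 10 to 60 days.

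The PPAR targets, chiefly genes of fatty acid uptake and oxidation, were less uniform. Of 23 tested, 2, 3 and 2 were higher and 16, 11 and 10 lower (medians -0.66, -0.33 and -0.34). With library totals 6, 11 and 8 were higher and 9, 6 and 4 lower, and the medians were -0.01, 0.16 and 0.07, so the direction at the later times flipped. Acadm, medium-chain acyl-CoA dehydrogenase, was at 1320 ± 49.3 CPM at 0 days and 315 ± 54.0 at 10 days (log2 -2.07, then -0.86 and -0.51, the last lost with library totals at -0.10). Pdk4, which restrains glucose oxidation, was lower at 10 and 30 days (-1.91 and -1.38, the second lost with library totals at -0.90, adjusted p 0.0656 by edgeR). Plin2, the coat protein of lipid droplets, went the other way, from 32.2 ± 4.33 CPM to 203 ± 41.6 by day 10 and 168 ± 50.5 by day 30 (2.65 and 2.38, edgeR adjusted p 1.43e-08 and 5.95e-08) and 43.0 ± 4.58 by day 60 (0.42, 0.0698, but called higher with library totals at 0.82, 0.00196). Summed macrophage markers moved too, from 28.8 to 42.2 CPM at 0 days to 88.2 to 124 CPM at 10 days, 107 to 139 at 30 days and 90.9 to 178 at 60 days, with all 7 markers above 0 in each group. Their part in the rise of Plin2 was not tested.

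Among 15 tested genes that maintain and transcribe mitochondrial DNA, where TFAM acts, 2, 3 and 1 were higher and 9, 8 and 7 lower (medians -0.31, -0.30 and -0.20). With library totals the balance was the opposite, 11, 8 and 8 higher and 0, 2 and 3 lower, with medians of 0.35, 0.19 and 0.21. Tfb2m, the mitochondrial transcription factor B2, was lower by -0.73, -0.70 and -0.61, and Lonp1, the protease that degrades TFAM, by -0.55, -0.47 and -0.40. With library totals Tfb2m was -0.08, -0.21 and -0.20, the first not called, and no change of Lonp1 was called (0.11, 0.02 and 0.01). Polg2, the accessory subunit of the mitochondrial DNA polymerase, was higher at 10 and 30 days (0.60 and 0.94), as was Tefm, the mitochondrial elongation factor (0.31 and 0.30).

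**Figure D5:**
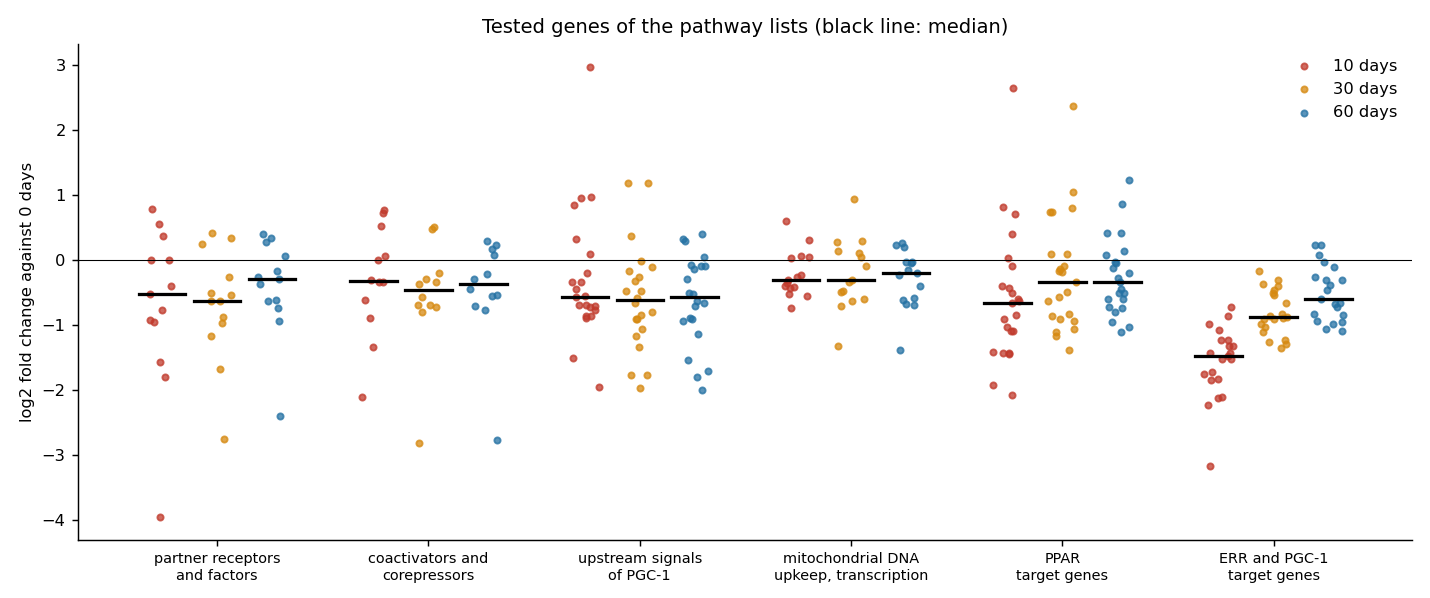
Log2 fold change against 0 days of the tested genes in 6 pathway lists, at 10, 30 and 60 days. Each point is a gene and each black line a median. The 21 ERR and PGC-1 targets all lie below 0 at 10 days (median -1.47), while the PPAR targets spread to both sides.

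Markers of other cell types changed in the same libraries. Summed fibroblast markers were 494 to 1020 CPM at 0 days and 974 to 2930, 1550 to 2530 and 1400 to 2990 CPM at 10, 30 and 60 days. Satellite cell and myogenic markers went from 75.6 to 94.0 CPM at 0 days to 643 to 738, 501 to 786 and 136 to 251 CPM. Of these 4 markers 3, 3 and 2 were higher and 0 lower on the TMM scale. Most of the sum was Myog (23.7 CPM at 0 days, 485 at 10 days) and Myod1 (59.8 and 200). Pax7 did not follow it, at 1.08, 0.956, 0.576 and 1.23 CPM at 0, 10, 30 and 60 days. It was not called against 0 days (edgeR adjusted p 0.701, 0.0555 and 0.632). Adipocyte markers were 197 to 235 CPM at 0 days and 82.4 to 150, 143 to 182 and 221 to 406 CPM, and Pparg is also among them. Of these 8 markers 1, 1 and 6 were higher and 2, 2 and 0 lower on the TMM scale. With library totals 1, 1 and 8 were higher and 1, 0 and 0 lower. Most of the sum was Fabp4 (181 CPM at 0 days, 83.8 at 10 days). Cidea did not follow it at 10 and 30 days (log2 2.18 and 2.34, edgeR adjusted p 2.54e-07 and 1.63e-07). Endothelial markers were 307 to 362, 174 to 261, 259 to 291 and 276 to 419 CPM, with 6 of 7 above 0, and Schwann cell markers 51.0 to 80.8, 29.4 to 52.1, 50.1 to 90.9 and 96.7 to 216 CPM. The part of these cells in the levels of the regulators was not tested.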

How the data were processed

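RNA of rat supraspinatus muscle was sequenced from polyA-selected TruSeq libraries, per the labels' protocols. The authors deposited 1 table of expected counts, the raw fragments per gene from Cuffdiff, with 233 genes holding fractional values. Per the submitters' processing notes the tools were bcl2fastq 1.8.4, FastQC, TopHat2 2.0.9, Bowtie2 2.1.0.0, Cufflinks and Cuffdiff 2.1.1, with genome build rn5. The annotation and the use of strand are not given in the sources used here. Groups follow the time in each label.

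Counts were rounded, filtered by group (edgeR's filterByExpr, 11658 of 17147 genes kept), scaled by TMM and fitted over all 16 libraries with edgeR 4.0.16 in R 4.3.3, by a robust quasi-likelihood F test, with Benjamini-Hochberg adjustment over all genes at 0.05. SE is the log2 change divided by the square root of F. Depth was 17.2 to 39.9 M fragments, and 3 counts of the total correspond to 0.0752 to 0.175 CPM. Ratios within a library add 0.5 to both counts and were tested by exact permutation (two-sided). The script was tested on simulated data. The members, gene lists and tests were chosen with earlier results of these data known. Named genes were all 10 regulators, for each pathway list up to 2 called genes per direction with the largest change at 10 days and a mean of at least 5 CPM, and the nearest profiles (up to 3) of members that differed over the groups and spanned at least 1 log2 unit. Of these, 2 genes are not reported here. Older symbols were matched through RefSeq's synonyms on GRCr8.

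Alternatives were RLE, upper-quartile and total-count scaling, DESeq2 1.42.0, other low-count filters, a threshold of 0.01 on the adjusted p, fits of only the groups compared, the suffix of the column names as a replicate block, the L or R of the titles as a covariate, thinning to the smallest total and leaving out each library. Replicates of a group differed beyond sampling noise (chi-square per gene 13.3 to 102). Figures used python 3.11.15 and matplotlib 3.10.9.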

Additional observations from a re-analysis of the deposited data

Results flagged for a closer look

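Of 40 groups of 4 libraries (10 regulators at 4 times), 2 held a library far from the other 3, and chance gives about 1 in 20. Esrrg in 60-day library 1 was 17.5 CPM, against 6.49 to 7.46 in the others, and without it the 60-day log2 change against 0 days was -1.42 in place of -0.96. Esrrb in 30-day library 3 was 0.040 CPM, against 0.142 to 0.161, and rests on 1 fragment.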

How the results depend on the processing

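RLE factors and DESeq2 left all 60 single calls of the regulators as they were. Library totals moved most. They reversed the log2 value of Ppara (0.013), Esrrb (0.493) and Nrf1 (0.056) at 10 days against 0 days and of Tfam at 30 and 60 days (0.249 and 0.074). They also reversed Ppargc1b for 30 against 10 days (-0.057), Ppara and Ppard for 60 against 30 days (-0.039 and -0.040) and Nrf1 for 60 against 10 days (-0.183), none of which was called in either fit. They lowered the count of regulators called at 60 days against 0 days from 9 to 5. The title letter as a covariate reversed Ppargc1b for 30 against 10 days (-0.076) and lowered that comparison's count from 6 to 3, as did an adjusted p under 0.01 (3). For 60 against 30 days the count of 2 became 1 with only those groups fitted and 0 at an edgeR adjusted p under 0.01, where 3 regulators had an unadjusted p under 0.05 and DESeq2 called 2 at its adjusted p under 0.05.

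Leaving out 1 library gave 3 to 7 calls for 30 against 10 days and 0 to 2 for 60 against 30 days. Values not called in either direction crossed 0 in these fits: Ppargc1b -0.036 to 0.397 for 30 against 10 days, Ppara -0.054 to 0.210 and Ppard -0.028 to 0.139 for 60 against 30 days, Ppara -0.266 to 0.048 and Nrf1 -0.099 to 0.150 for 60 against 10 days, and the log2 ratio of Esrrg to Esrra -0.37 to 0.09 at 30 days. The cause of these changes was not tested.

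The suffix of the column names did not pair the libraries: deviations of same-suffix libraries had a mean correlation of 0.00129, and 4 of 24 pairs exceeded 0.1. With the replicate block 58 of 60 single calls stayed, those of Ppargc1b at 30 days against 0 days (-0.539, edgeR adjusted p 0.0605) and Esrra at 30 against 10 days (0.328, 0.0571) were lost, and the counts were 7, 9 and 9 at 10, 30 and 60 days against 0 days. Depth limits Esrrb, at 1 to 10 fragments per library at 30 and 60 days.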
